A study of Mus musculus with 4 samples.

Results

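OSKM-CMPs were compared between day 6 and day 4 of reprogramming across all genes of a single-colour expression array, with 1 array for each day. CMPs are cardiac mesenchymal progenitors, here Sca-1+ cells from the hearts of adult C57BL/6 mice that, by the study's methods, were 10 to 16 weeks old and gave their atria. The methods state that the cells were grown on collagen with basic fibroblast growth factor, then transduced with Sendai viruses carrying Oct4, Sox2, Klf4 and c-Myc (OSKM) 1 day before day 0, and kept from day 0 in a reprogramming medium without leukemia inhibitory factor. Both arrays come from C57BL/6 cells given OSKM, and by the labels they differ in the time point alone. Untreated CMPs (day 0) and OSKM-CMPs at day 8, with 1 array each, serve only for values placed beside those of the middle step. A probe entered when its signal was well above background on the day 4 or the day 6 array, and the value of a gene is the mean of its probes. This gave 15956 genes out of 22220 named on the arrays, and 16658 were above background on at least 1 of the 4 arrays. Cells in these cultures need not all carry the same viruses, and no label says whether the RNA of a day came from 1 dish or several.

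Adipocytes form when committed progenitors switch on PPARγ and C/EBPα, which together activate the genes for fatty acid uptake, triglyceride assembly, lipid droplet coats and secreted adipokines. The same progression usually goes with an exit from the cell cycle. Immediate early genes such as Fos and Egr1 respond within minutes to serum, growth factors, adipogenic hormones or stress.

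A level is given here as the log2 processed signal minus the 75th percentile of its own array, and a change as the day 6 level minus the day 4 level. The ± after a change is the error of the scanner software's error model carried over both arrays, with a median of 0.20 per gene. It covers the hybridisation and not the spread between cultures, so the changes describe these 2 arrays and no p-value can be given. The arrays were on 1 slide and read in 1 scan, their 75th percentiles were signals of 388.5 and 406.4, and 57.2% and 56.7% of probes were well above background. Of 10 spike-in probes, which measure control transcripts added to the RNA, 8 were above background in every spot. Their changes ran from -0.22 to -0.10 with a median of -0.15, at day 4 levels from -2.95 to 9.95. The dimmest measured genes lie below that range. The other 2 spike-in probes were dimmer and changed by -0.51 and -0.12. Scaling the arrays on the 8 bright spike-in probes would add 0.15 to every change below. The labels do not say whether equal amounts were added.

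All 6 listed markers of mesenchymal progenitors were above background on both days, and the change of their summed linear level was small, from 243.4 to 246.0 times the array's 75th percentile signal. Sca-1 itself (Ly6a) was at 6.69 on day 4 and 6.96 on day 6. The other markers in that sum were lower at day 6. Thy1, Eng, Cd44, Itgb1 and Pdgfra changed by -0.15, -0.01, -0.21, -0.26 and -0.35. Among 5 adipocyte markers, Adipoq, Plin1, Fabp4 and Cfd were above background on both days and Lep on neither, and their summed level went from 19.5 to 123.4. Of 6 leukocyte markers 3 had a probe above background at day 4 and 4 at day 6, with a summed level of 0.67 and 0.75. Laptm5 and Tyrobp were not well above background on either day. Ptprc went from a dim -5.55 to -4.53, above background, and Cd68 from -2.83 to -2.38. Fcer1g and Coro1a changed by 0.01 and 0.03. In a longer leukocyte list 2 of 11 measured genes were at least 2-fold higher (18.2%, against 2.6% of all genes) and none lower. These were Cd74 (1.17 ± 0.21) and Ptprc. Ptprc entered through the day 6 array alone, so it could differ only in that direction, and its bound is 1.57-fold. Of these genes only Cd74 was above background on both days. Of the endothelial markers, Pecam1 (-2.95 and -2.78) and Kdr (-0.18 and -0.07) were above background at day 4 and day 6. Cdh5, Tie1 and Emcn were not well above background on either day. Of the epicardial or mesothelial markers, Msln stood at 3.39 and 3.32 and Upk3b at -3.82 and -3.97, above background on both days. Wt1 and Lrrn4 were not well above background on either day. For cardiomyocyte markers the sum was 4.58 and 6.65, and it follows Tnnt2, cardiac troponin T, at 2.14 and 2.70. Tnni3, Myh6 and Ryr2 were far dimmer, at -3.42, -5.22 and -4.79 on day 4, and changed by -0.22, 0.23 and 0.29. Actn2 was not well above background on either day.

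Between day 4 and day 6 most genes stayed close to their level while a small set of fat cell genes was far higher. Of 15956 genes, 415 (2.6%) were at least 2-fold higher at day 6 and 377 (2.36%) at least 2-fold lower. The median change was -0.03, with quartiles of -0.21 and 0.15. A gene that entered through only 1 of the arrays was bound to differ in that direction, so the 14858 genes above background on both days give the cleaner account: 247 of them (1.66%) were higher and 163 (1.1%) were lower. The higher side reached further. Among genes above background on both days, 20 were at least 8-fold higher and none was 8-fold lower, and at 4-fold the counts were 51 and 6. Of all genes called lower, 51.5% were not above background at day 6, and of all genes called higher, 35.2% were not above background at day 4. The split between directions moved with the scale: 52.4% of called genes were higher as reported, 66.7% with the spike-ins as the scale (542 higher, 271 lower) and 77.4% after normexp and quantile normalization (147 higher, 43 lower).

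**Figure D1:**
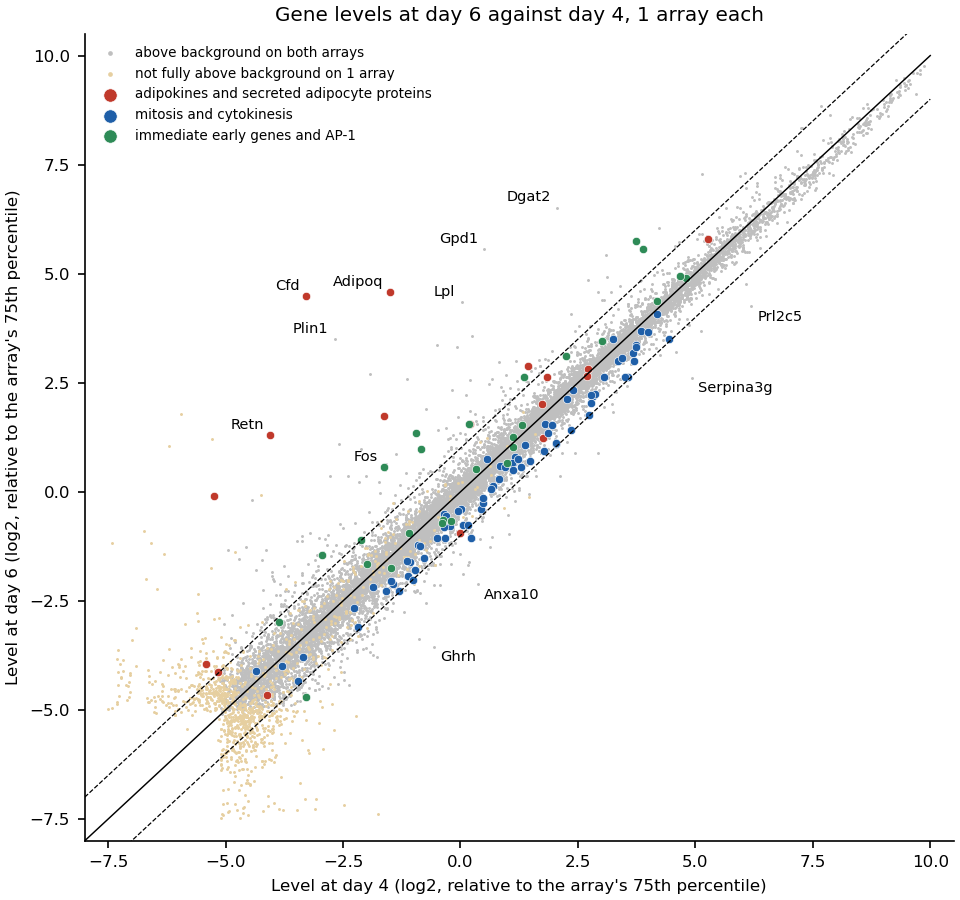
Level of each gene at day 6 (vertical) against day 4 (horizontal), both in log2 relative to the 75th percentile of the array, 1 array per day. The solid line marks equal levels and the dashed lines a 2-fold change. Grey points are genes above background on both arrays and tan points are genes that were not fully so on 1 of them. Most genes follow the solid line, among genes above background on both arrays Cfd, Plin1 and Adipoq lie farthest above it, and the mitotic genes (blue) lie mostly just below it.

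Among genes above background on both days, the largest increases were in genes of mature fat cells. Cfd, which encodes adipsin, the complement factor D secreted by adipocytes, was not well above background at day 0, stood at -3.30 at day 4 and 4.48 at day 6, and reached 6.59 at day 8. Its change from day 4 to day 6 was 7.78 ± 0.22, a 220.2-fold difference. Plin1, the perilipin that coats lipid droplets in adipocytes, went from -2.68 to 3.50, a change of 6.18 ± 0.21. Adipoq, the hormone adiponectin, went from -1.51 to 4.57, a change of 6.08 ± 0.21. For these 3 genes the day 6 level was above the day 4 level by far more than the array error, and the day 8 level was higher again. The probes lie, in the mm9 coordinates of the array files, at chr10:79355302-79355361 for Cfd, chr7:86866112-86866171 for Plin1 and chr16:23157576-23157635 for Adipoq. In bulk RNA, a different number of cells of a type and a different amount of RNA per cell cannot be told apart, here and for the genes of cell division.

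The next genes in order were mostly enzymes and carriers of fat storage. Retn (the adipokine resistin) changed by 5.36 ± 0.19, Gpd1 (glycerol-3-phosphate dehydrogenase) by 5.07 ± 0.20 and Car3 (carbonic anhydrase 3, abundant in fat) by 4.65 ± 0.21. Dgat2, which adds the last fatty acid to a triglyceride, changed by 4.45 ± 0.20, and Lpl, the lipase that frees fatty acids from lipoproteins, by 4.33 ± 0.14. Lpl had been higher at day 0 (1.64) than at day 4 (0.02) and stood at 4.35 at day 6. Thrsp, a regulator of lipogenesis, Cox8b, a cytochrome c oxidase subunit typical of brown fat and muscle, and the retinol carrier Rbp4 changed by 3.86 ± 0.20, 3.73 ± 0.20 and 3.38 ± 0.21. Not all of the top 15 are fat cell genes. S100a8, a calcium-binding protein best known from neutrophils, changed by 4.26 ± 0.28 while the leukocyte marker sum went from 0.67 to 0.75. The part of leukocytes in that change was not tested. Cited4, a transcriptional cofactor, went from -2.58 to 1.09 and was lower again at day 8 (-0.32). C6, a terminal complement component, changed by 3.62 ± 0.34 and Hp, haptoglobin, by 3.38 ± 0.20.

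**Figure D2:**
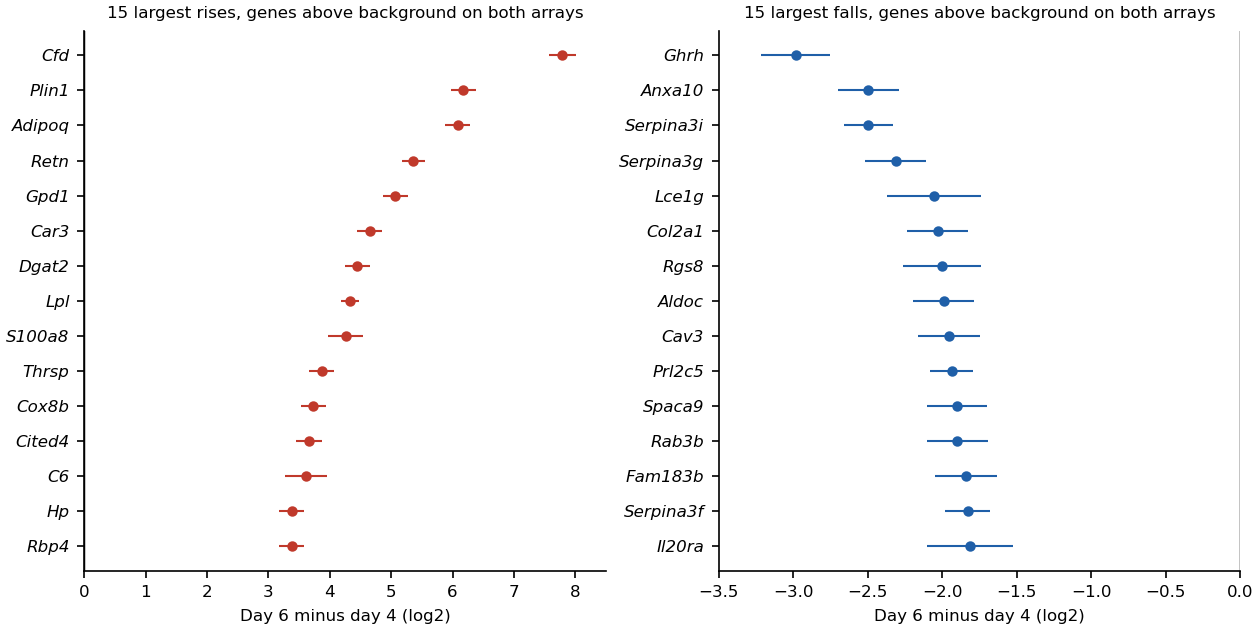
Day 6 minus day 4 (horizontal, log2) for the 15 genes with the largest increases (left) and the 15 with the largest decreases (right) among genes above background on both arrays. Points are single-array differences and bars are the error of the array error model. Increases run from 3.38 to 7.78 and decreases from -2.98 to -1.81, and the horizontal scales of the panels differ.

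The decreases were smaller and more mixed in kind. Ghrh, which encodes growth hormone-releasing hormone, went from -0.57 to -3.55, a change of -2.98 ± 0.23. It had been at -4.10 at day 0, so that its day 4 level was the highest of the 4 arrays. Anxa10, an annexin, followed the same course, with -4.80, 0.37, -2.12 and -2.97 from day 0 to day 8. Serpina3i, Serpina3g and Serpina3f, protease inhibitors of 1 gene cluster whose near-identical copies may share probe signal, changed by -2.49 ± 0.16, -2.31 ± 0.20 and -1.83 ± 0.15. Prl2c5, a proliferin with close paralogs that make its identity uncertain, went from 6.19 to 4.25. All 4 of these genes had been lower at day 0 than at day 4, Serpina3g at 2.34 and Prl2c5 at 0.91. The genes of this paragraph were named for the largest decreases from day 4, which favours high day 4 values. An error on the day 4 array enters the steps before and after it with opposite signs. Col2a1, the collagen of cartilage, and Cav3, the muscle caveolin, instead were highest at day 0, and changed by -2.03 ± 0.20 and -1.96 ± 0.21 between day 4 and day 6. Aldoc, a glycolytic aldolase, changed by -1.99 ± 0.20.

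Some genes were above background on only 1 of the days, and for these the change is a bound, taken from the lowest signal that counted as above background on the dim array or from the gene's own dim value, whichever was higher. Slc36a2, an amino acid transporter found in fat and kidney, was at least 83.1-fold higher at day 6, and Wfdc21, a secreted whey acidic protein family member, at least 75.5-fold. Acvr1c (the activin receptor ALK7 of adipocytes) was at least 19.3-fold higher and Pck1, the cytosolic carboxykinase that supplies glycerol for triglycerides, at least 16.1-fold. All 4 were still above background at day 8. Olfr541, an olfactory receptor, was at least 16.2-fold higher at day 6 but dim again at day 8, on a single spot per array. In the other direction the bounds were smaller. After a gene without a known product (at least 14.1-fold lower) they were at least 8.56-fold for the vomeronasal receptor Vmn1r21, 7.51-fold for the keratin Krt27 and 6.82-fold for the cornified envelope gene Sprr2g. Vmn1r21 was dim on the other 3 arrays.

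Adipokines and lipolysis stood at the upper end of the 45 lists examined. Among adipokines and other secreted adipocyte proteins 9 of 17 measured genes were at least 2-fold higher and none lower, with a median change of 1.03 against -0.03 over all genes, of which 2.6% were called higher. Besides Cfd, Adipoq, Retn and Rbp4 these were Rarres2 (chemerin, 1.45), Apln (apelin, 1.35), Adig (5.15, with part of its probes dim at day 4), Nrg4 and Sfrp5, the last pair dim at day 4. Apart from Sfrp5, these last genes fell outside the naming rule and were named after their values were seen. Leptin (Lep) was measured on neither day. In lipolysis 7 of 14 genes were higher, with a median of 1.00, and these include Lpl and the receptor gene Acvr1c, both described above. Lipe, the hormone-sensitive lipase, changed by 1.42 ± 0.21 and Mgll, which cleaves the last acyl chain, by 1.90 ± 0.12. In triglyceride synthesis 6 of 20 were higher, with a median of 0.29: Gpd1, Dgat2 and Pck1 above, Gpat3 by 2.51 ± 0.20, and Agpat2 (2.16) and Gpam (1.52). No gene of the list was 2-fold lower, and Lpin1, a phosphatidate phosphatase, changed by 0.59.

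For fatty acid uptake and activation 3 of 18 genes were higher (16.7%, against 2.6% of all genes). Acsl1, an acyl-CoA synthetase, changed by 3.33 ± 0.14, the scavenger receptor Cd36 by 2.77 ± 0.21 and Fabp4, the fatty acid carrier of adipocytes, by 1.81 ± 0.20. Fabp4 had already gone from 1.28 at day 0 to 4.24 at day 4. Of 18 lipid droplet proteins 3 were higher (also 16.7%) and none lower, with a median of 0.25. These were Plin1, G0s2 (1.36 ± 0.20), an inhibitor of lipolysis, and Cidec, which enlarges droplets. Cidec, named after its value was seen, went from -5.94 to 1.79 with part of its probes dim at day 4. Plin2 and Plin4, other droplet coat proteins, changed by 0.20 and 0.30, the latter from a day 4 level of 5.39 that already exceeded its day 0 level of -1.94.

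Fatty acid synthesis and desaturation gave a different picture, with 4 of 26 genes higher (15.4%, against 2.6% of all genes). Its median of -0.05 turns positive with the spike-ins as the scale. The 4 were Thrsp, Fasn (fatty acid synthase, 1.30 ± 0.20), Scd1 (a desaturase, 1.25) and Hacd2 (1.21), the last 2 named after their values were seen. Acly and Acaca, which feed fatty acid synthase, were nearly level at 0.04 and 0.11. Fasn stood at -0.60, -0.87, 0.43 and 1.70 from day 0 to day 8, and thus was first above its day 0 level at day 6. Among genes of brown and beige fat only Cox8b was called, 1 of 16, and Ucp1, the uncoupling protein, was measured on neither day. Fatty acid oxidation had a median of 0.06, with 2 of 44 called higher (4.55%, near the 2.6% of all genes) and none lower. These were Acot3, a peroxisomal thioesterase, at 2.65 ± 0.27, and Acot4, at least 1.34-fold higher from a dim day 4 value.

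Among 29 adipogenic transcription factors 6 were higher (20.7%, against 2.6% of all genes), with a median of 0.21. Lower was 1 factor (3.45%, against 2.36%). Pparg, the master regulator, was already close to its highest level at day 4. Its levels were 0.98, 4.63, 4.83 and 4.82, and the change between day 4 and day 6 was 0.21 ± 0.06. Cebpa, its partner, went from 1.43 to 2.53, a change of 1.10 ± 0.20. The lipogenic factors were higher by a little more. Nr1h3 (the liver X receptor LXRα) changed by 1.64 ± 0.14 and Srebf1, the sterol response factor that drives lipogenesis, by 1.59 ± 0.21. Mlxipl, the carbohydrate-sensing factor ChREBP, changed by 1.33 ± 0.15, but its 2 probes disagreed in size, at 0.33 and 2.33. Ebf1 (1.06) and Klf15 (1.03), named after their values were seen, complete the 6. The early factor Cebpd was the 1 that was lower, from 6.07 to 4.76, and Cebpb changed by -0.26 ± 0.20. Before this step the order had been different, with Pparg and Cebpa higher at day 4 than at day 0 and Nr1h3 and Srebf1 lower, while Mlxipl went from -1.19 to -0.80.

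The factors delivered by the virus can be read only in part, because probes were designed for mouse genes and the viral copies need not match them. Klf4 changed by 0.14 ± 0.20 and Myc by -0.26 ± 0.15. Pou5f1, which encodes Oct4, and Sox2 were not well above background on either day. Of 21 measured pluripotency genes none was 2-fold higher, and Tfcp2l1 was at least 2.28-fold lower, its probes dim at day 6.

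**Figure D3:**
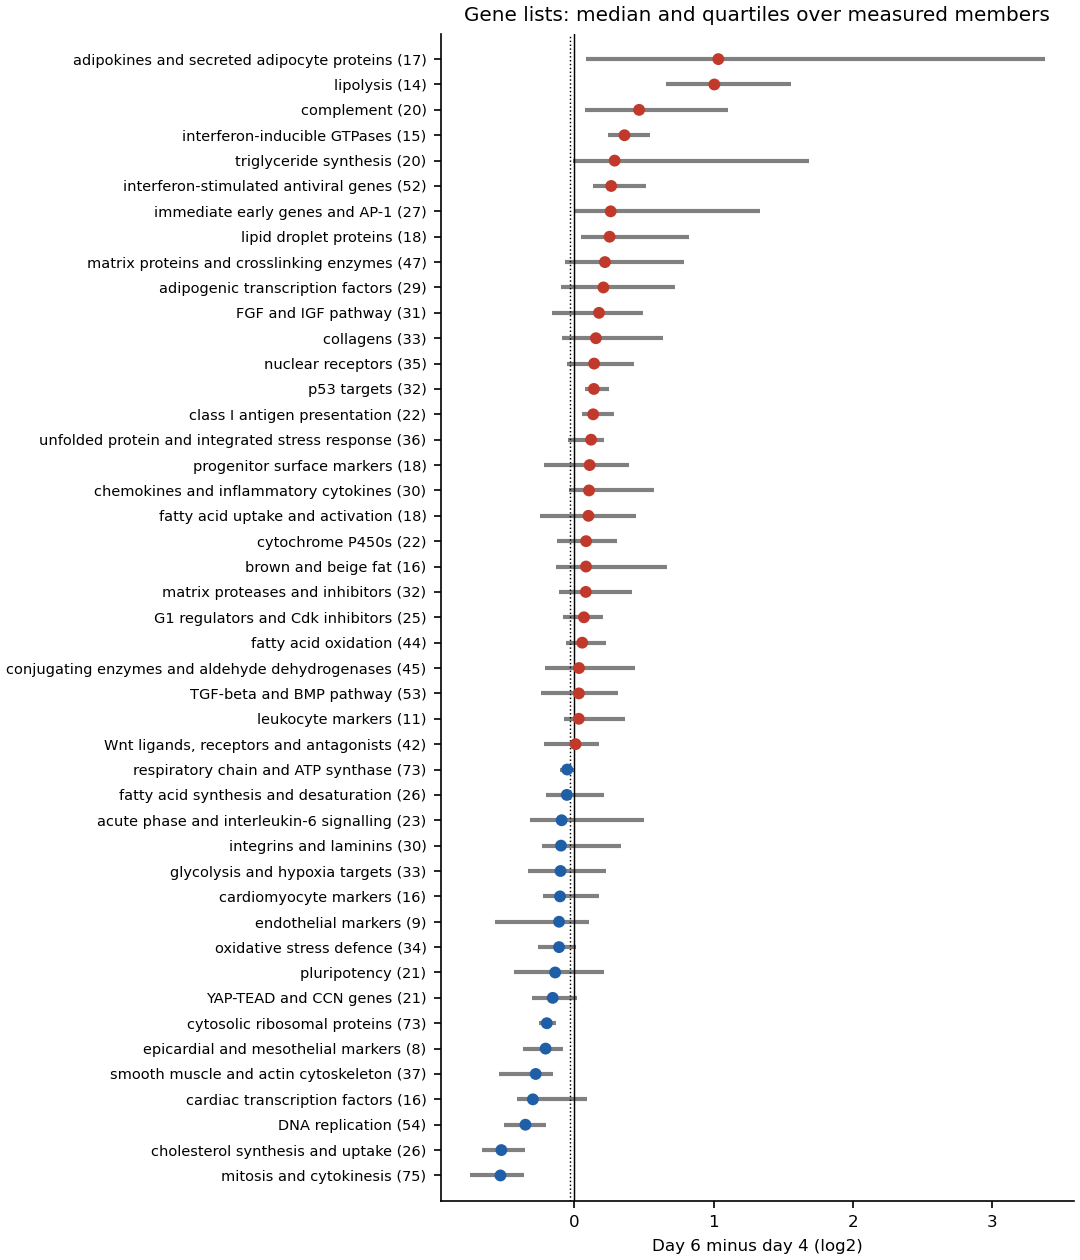
Day 6 minus day 4 (horizontal, log2) for 45 gene lists, with the number of measured genes in parentheses. Points are medians over the genes of a list, bars span the quartiles and the dotted line is the median of all genes (-0.03). Adipokines (1.03) and lipolysis (1.00) lie highest, and mitosis (-0.53) and cholesterol synthesis (-0.52) lowest.

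Cell division genes were lower as a group and by small amounts. In the list of mitosis and cytokinesis the median change was -0.53, and 3 of 75 measured genes lay above zero (Pttg1, Kif14 and Psrc1, at 0.19, 0.24 and 0.26, named after their values were seen). Only 2 of the 75 passed 2-fold, near the share of all genes. Spc24, a kinetochore protein, changed by -1.26 ± 0.21 and Foxm1, the transcription factor of late cell cycle genes, by -1.01 ± 0.17. Foxm1 stood at 0.29, -1.01, -2.02 and -2.70 from day 0 to day 8, so each later array was lower. DNA replication genes had a median of -0.35, with 2 of 54 above zero. Uhrf1, which maintains DNA methylation, was the 1 gene of the 54 past 2-fold (-1.04 ± 0.18). With the spike-ins as the scale the mitotic median was -0.38 and 7 genes lay above zero, and the replication median was -0.20 with 11 above zero.

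Mitotic genes share promoter elements, among them the CHR (TTTGAA), read by the DREAM and B-Myb complexes, the CCAAT box, read by NF-Y, and sites for E2F (TTTCCCGC or TTTGGCGC). The 250 bases before the start were searched for these words on both strands in the RefSeq promoters of GRCm38.p6, taking the first start listed for a gene. No word contains another. The CHR word was in 21 of 64 mitotic promoters (32.8%), against 11.3% of the promoters of measured genes and 16.3% of all 27025. CCAAT was in 45 of 64 (70.3%), against 36.1% and 34.5%, and an E2F word in 4 of 64 (6.25%), against 2.24% and 1.35%. In 43 promoters of the DNA replication list the shares were 9.3% for CHR, 58.1% for CCAAT and 14.0% for E2F. A match is a run of letters and not a site. Spc24 and Foxm1 had no entry in the promoter table. The stretches printed are those of Cdca3 (chr6:124829926-124830175, plus strand) with a change of -0.97, the entry with the largest decrease, and Cdc20 (chr4:118437344-118437593, minus strand) at -0.95 and Ccnb2 (chr9:70421555-70421804, minus strand) at -0.92, which hold both CHR and CCAAT words. Entries that lie between Cdc20 and Ccnb2 in size of decrease are not printed. Of these Kif22 (-0.923) holds both words, Kif23 (-0.927) CCAAT alone and Birc5 (-0.927) none of the words. Cdca3 encodes a trigger of mitotic entry, Cdc20 the activator of the anaphase-promoting complex and Ccnb2 cyclin B2. Capitals mark every match.
Cdca3: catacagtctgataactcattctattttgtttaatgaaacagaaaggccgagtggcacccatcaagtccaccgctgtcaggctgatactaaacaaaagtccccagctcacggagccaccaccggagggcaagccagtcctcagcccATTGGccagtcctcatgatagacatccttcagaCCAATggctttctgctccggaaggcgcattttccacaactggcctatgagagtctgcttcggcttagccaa
Cdc20: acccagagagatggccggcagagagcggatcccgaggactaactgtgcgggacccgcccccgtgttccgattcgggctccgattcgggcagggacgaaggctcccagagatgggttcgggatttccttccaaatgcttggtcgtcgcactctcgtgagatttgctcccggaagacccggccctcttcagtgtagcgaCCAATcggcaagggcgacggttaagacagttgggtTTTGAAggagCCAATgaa
Ccnb2: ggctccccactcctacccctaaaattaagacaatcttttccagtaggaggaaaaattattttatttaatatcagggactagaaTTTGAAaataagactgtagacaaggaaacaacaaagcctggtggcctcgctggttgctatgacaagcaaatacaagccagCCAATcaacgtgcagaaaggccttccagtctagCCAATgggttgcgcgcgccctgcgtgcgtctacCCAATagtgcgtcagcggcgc

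Cholesterol genes were lower almost without exception. The median over 26 genes of cholesterol synthesis and uptake was -0.52, and only Insig1, the sterol sensor that holds back the pathway, lay above zero (0.23, named after its value was seen). With the spike-ins as the scale 3 genes lay above zero. Fdps, farnesyl diphosphate synthase, was past 2-fold, from 4.86 to 3.83 (-1.02 ± 0.20). Hmgcs1 and Sqle, the synthase and the epoxidase, changed by -0.47 and -0.84. The list had a median of 0.67 from day 0 to day 4 and 0.07 from day 6 to day 8. These steps share the day 4 and day 6 arrays with the one described, so an error on either array enters neighbouring steps with opposite signs. Srebf1 and Fasn were higher at day 6, while Srebf2, the sterol-regulated paralog, changed by -0.53.

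Several immediate early genes were higher at day 6 than at day 4 and day 8. In that list 9 of 27 genes were at least 2-fold higher (33.3%, against 2.6% of all genes). Lower was 1 gene (3.7%, against 2.36%), and the median was 0.26. Fos, a subunit of AP-1, stood at 3.17, -1.62, 0.56 and -0.65 from day 0 to day 8. Egr1 stood at 5.05, 3.73, 5.74 and 4.61, Egr2 at 1.43, -0.95, 1.35 and 1.12, and Ier2 at 1.62, -0.84, 0.97 and -0.19. All 4 were lower at day 4 than at day 0, higher at day 6, and lower again at day 8, Egr2 with a change of -0.24. These steps share the day 4 and day 6 arrays, so an error on either array enters neighbouring steps with opposite signs. The 4 genes were named for the largest increases of the list in this step. Their changes from day 4 to day 6 were 2.18 ± 0.07, 2.01 ± 0.20, 2.30 ± 0.20 and 1.82 ± 0.20. The nuclear receptor Nr4a1 (1.68 ± 0.20), the antiproliferative gene Btg2 (1.27 ± 0.20) and, outside that list, Ccn1, a matricellular YAP target (1.72 ± 0.20), had the same order of levels from day 4 to day 8. Jun, the partner of Fos, changed by 0.20 ± 0.20, and the growth factor Areg was the gene that was lower (-1.42 ± 0.32).

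**Figure D4:**
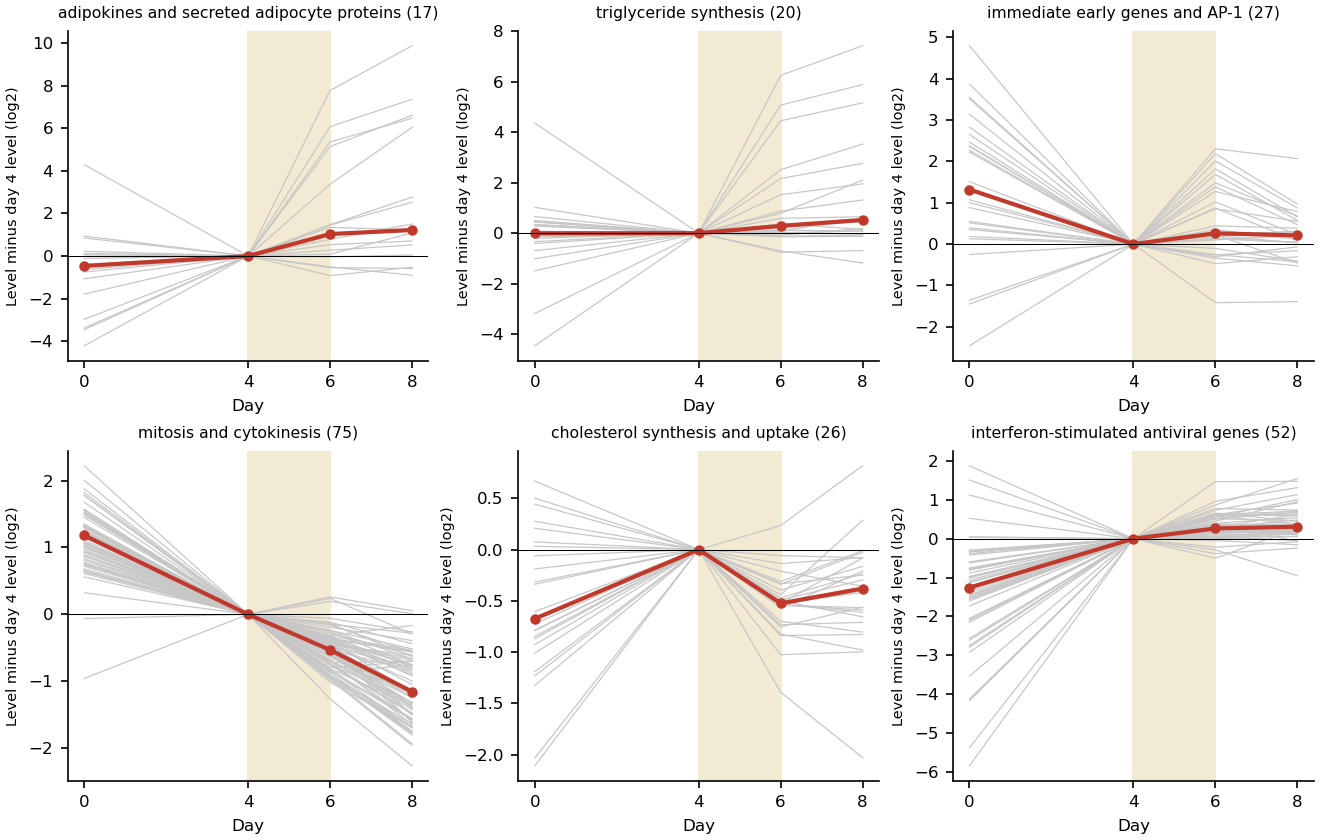
Level of each gene minus its day 4 level (vertical, log2) on the arrays of days 0, 4, 6 and 8 (horizontal) for 6 gene lists, with the number of genes in parentheses and 1 array per day. Thin lines are genes, the thick line is the list median, the shaded band is the step from day 4 to day 6, and the vertical scales differ. The adipokine and triglyceride lists fan upwards after day 4, the mitotic median falls at each step, and the cholesterol median peaks at day 4.

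Interferon-related genes were slightly higher, with few past 2-fold. Of 52 interferon-stimulated antiviral genes 45 lay above zero and the median was 0.26, while the share past 2-fold was no more than that of all genes. Rsad2 (viperin) and Mx1, antiviral effectors named after their values were seen, changed by 0.96 and 0.78. All 15 interferon-inducible GTPases lay above zero with a median of 0.36, among them Iigp1 (0.72) and Gbp4 (0.73), and this held under each scaling tried. Several of these GTPases have near-identical copies whose signals may mix. All 22 genes of class I antigen presentation lay above zero as well, by a median of 0.13, and again under each scaling. The larger part of the interferon change lay before day 4, with list medians of 1.26, 1.84 and 0.88 from day 0 to day 4 against 0.26, 0.36 and 0.13 in this step. The steps share the day 4 array. Among chemokines and cytokines 4 of 30 were higher (13.3%, against 2.6% of all genes) and none lower. Ccl5, a T cell chemoattractant, went from 7.24 to 8.33, Cxcl9 changed by 1.16 ± 0.15 and Ccl11 (eotaxin) by 1.48 ± 0.24, and Ccl4 was at least 4.83-fold higher from a dim day 4 value.

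Complement and acute phase genes included both higher and lower members. Over all genes 2.6% were called higher and 2.36% lower. In the complement list 6 of 20 were higher (30.0%) and 1 lower (5.0%), and 15 lay above zero, with a median of 0.46. Besides Cfd and C6 these were the central component C3, from 6.06 to 7.32 (1.26 ± 0.11), C4b (1.38 ± 0.20, with a near-identical copy, C4a), and C2 (1.16) and Cfb (1.08), the last 2 named after their values were seen. The receptor gene C3ar1, found on myeloid cells, was the gene that was lower (-1.06 ± 0.30). In the acute phase list 4 of 23 were higher (17.4%) and 3 lower (13.0%). Hp, Hpx (hemopexin, 1.55), Orm1 and Orm2 were higher, the orosomucoids from dim day 4 values with bounds of 2.13-fold and 4.19-fold. Hpx and Orm1 were named after their values were seen. Serpina3g, Serpina3n (-1.24 ± 0.20) and Steap4, a metalloreductase, (-1.54 ± 0.22) were lower.

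Matrix genes were higher more often than lower. Of 47 matrix proteins and crosslinking enzymes 8 were at least 2-fold higher (17.0%, against 2.6% of all genes) and none lower, with a median of 0.22. Postn (periostin) went from 3.12 to 4.92, a change of 1.81 ± 0.20, and Tnxb (tenascin X) changed by 1.34 ± 0.20. Lum (lumican) and Fap, a surface protease of activated fibroblasts, changed by 1.29 ± 0.20 and 1.24 ± 0.20. Among collagens 4 of 33 were higher (12.1%) and 1, Col2a1, lower (3.03%, against 2.36% of all genes). Col14a1 changed by 1.42 ± 0.14 and Col15a1 by 1.03 ± 0.12, Col23a1 by 1.23 with part of its probes dim at day 4 (named after its value was seen), and Col26a1 was at least 2.32-fold higher. The main fibrillar genes Col1a1 and Col1a2 changed by -0.05 and -0.04, which lie above zero with the spike-ins as the scale. Growth factor genes followed no single direction. Fgf10, a mesenchymal growth factor, changed by 1.18 ± 0.07 and Igfbp6 by 1.08 ± 0.20, Rspo3, a Wnt amplifier, by 2.10 ± 0.21, and the Wnt antagonist Wif1 by -1.75 ± 0.24.

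Few muscle and cardiac genes passed 2-fold, near the share of all genes (2.6% higher and 2.36% lower). The smooth muscle and actin list had a median of -0.28 over 37 genes, of which only Acta2, smooth muscle actin, passed 2-fold (4.24 to 3.15, -1.09 ± 0.06), and the list had a median of -0.80 from day 0 to day 4. Of 16 cardiac transcription factors none passed 2-fold, with a median of -0.30. Gata4 and Tbx5, regulators of heart development, changed by -0.67 ± 0.21 and -0.50 ± 0.28, and Mef2c by 0.24 ± 0.21. Among 16 cardiomyocyte markers 7 lay above zero and none passed 2-fold, with a median of -0.10, and Tnnt2 changed by 0.56. Among glycolysis and hypoxia genes Slc2a4, the insulin-responsive glucose transporter, went from -3.37 to -1.01 (2.35 ± 0.07), while Aldoc and Car9 were lower, the latter at least 3.57-fold from day 4 to a dim day 6 value. Hif1a changed by 0.09 ± 0.20. Enzymes of detoxification included 5 of 45 that were higher, with Sult1a1 at 2.11 ± 0.14 and the soluble epoxide hydrolase Ephx2 at 1.80 ± 0.20. The airway cytochrome Cyp2f2 changed by 3.30 ± 0.28.

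Ribosomal protein genes were lower in all 73 measured cases as reported, by a median of -0.20. The median stayed below zero under each scaling tried, but its size and the shared direction of all genes rested on the scale. Most of them lie among the brightest 10th of genes. With the spike-ins as the scale their median was -0.04 and 23 lay above zero, and after quantile normalization it was -0.05 with 24 above zero. Respiratory chain genes, with a median of -0.05, were at 0.05 after quantile normalization. The mitotic and cholesterol medians also stayed below zero under each scaling tried, at -0.38 or lower and -0.37 or lower.

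**Figure D5:**
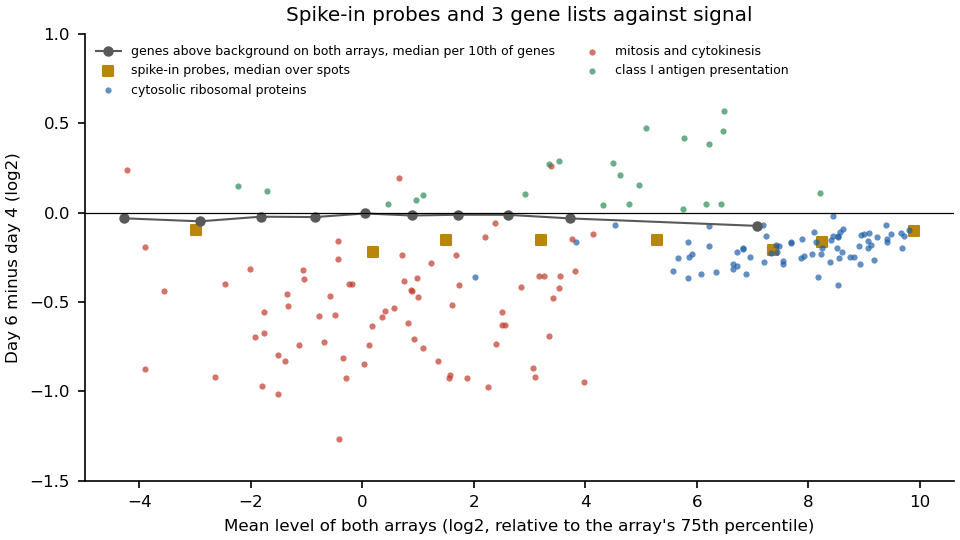
Day 6 minus day 4 (vertical, log2) against the mean level of both arrays (horizontal, log2 relative to the 75th percentile). Grey circles are medians over 10 equal groups, by signal, of the genes above background on both arrays, squares are the 8 spike-in probes, and small points are genes of 3 lists. The group medians lie between -0.07 and 0.00, the spike-in probes between -0.22 and -0.10 in the range of the ribosomal genes, and most mitotic genes below both.

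Of all 33023 kept probes 842 were at least 2-fold higher and 848 lower. Probes without a gene name numbered 11088, and 305 of these were higher and 360 lower. Of 7014 kept probes for long intergenic RNAs 222 were higher and 247 lower, with a median of 0.01. Where a called gene had several probes (111 genes), the probes disagreed in sign for 8.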

How the data were processed

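Total RNA (250 ng per the labels) was labelled with Cy3 and hybridised to single-colour Agilent arrays, 4 in all, of which the day 4 and day 6 arrays were compared. In the deposited scanner files every spot (62976 per array) has a processed intensity, already background-subtracted by the authors' software, an error and flags. Their headers name Feature Extraction 10.7.3.1, whereas the submitters' processing notes name 9.5.3. The authors' deposited value table holds log2 values shifted by a constant per array so that the 75th percentile is about 0, and it served as an alternative.

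Here 3671 control spots and outlier spots (87 at day 4, 105 at day 6) were left out, log2 intensities were averaged over the spots of a probe, and each array's 75th percentile was subtracted. No spot was saturated. Probes well above background at day 4 or day 6 (33023) were kept. Names came from RefSeq (GRCm38.p6), with 26762 probes matched by accession, 3819 by symbol, 639 by synonym and 24461 unnamed. Probe positions are those of the files (mm9). A gene was the mean of its kept probes, and was called at a 2-fold difference. No test applies with 1 array per group. The precision is limited by the number of arrays. All computations used Python 3.11.15 (numpy 2.4.6, pandas 2.3.3), and limma 3.58.1 in R 4.3.3 for normexp (offset 50) and quantile normalization. The calling step was tested on simulated data.

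Genes were named by rule: the 15 largest increases and decreases among genes above background on both arrays, the 5 largest bounds each way, up to 4 genes per list in the direction of its median and 2 against it, and 16 genes of the study. Genes outside the rule are list members chosen after their values were seen. The genes, the 45 lists and the rules were chosen with earlier results of these data known. The spike-in scale was added after seeing the data. Some genes that the rule names are not reported here.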

Additional observations from a re-analysis of the deposited data

How the results depend on the processing

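No paired analysis was possible because there was a single array on each day. The count of genes higher (415) and lower (377) was 147 and 43 after normexp and quantile normalization, 638 and 787 with no filter on dim probes, and 258 and 169 with probes above background on both arrays, and stayed within 1.5 times under the other settings (quantile normalization, the array median, the authors' values, floored dim values, the brightest probe, the spike-in scale, and 2-fold with over 2 times the error). Of the medians, after normexp and quantile normalization adipokines were at 0.60, lipolysis 0.65, triglyceride synthesis 0.15, FGF and IGF 0.073, ribosomal proteins -0.039, smooth muscle -0.15 and cardiac transcription factors -0.19. After quantile normalization ribosomal proteins were at -0.053 and the respiratory chain at 0.053. With no filter adipokines were at 0.66, complement 0.19, cardiac transcription factors -0.0096, and endothelial markers turned from -0.11 to 0.030. With probes above background on both arrays adipokines were at 0.785, lipolysis 0.85 and triglyceride synthesis 0.12. With the brightest probe triglyceride synthesis was at 0.17, interferon-inducible GTPases 0.48 and FGF and IGF 0.045. The causes were not tested, except that the filters change which genes enter. The other 341 list medians under these settings moved by at most 0.1. With the spike-ins as the scale 0.15 is added to every change, and 9 of 45 medians change sign, none over 0.14 in size. Among the genes chosen by the naming rule, and leaving aside the spike-in scale, only Hif1a changed direction, to -0.098 with no filter. The array error leaves out the spread between cultures, and genes near background carry larger errors.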
